A study of Mus musculus with 44 samples.

Results

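The comparison described here set Treg cultures of miR-150 knock-in mice (Treg KI, 5 libraries) against Treg cultures of wild-type mice (Treg WT, 5 libraries), chosen by their labelled titles, so 10 of the 44 libraries of the study. All groups were made from C57BL/6NTac mice: naive CD4+ cells sorted from spleen were plated at 150000 cells per well on anti-CD3 with soluble anti-CD28 and kept for 3 days, and the Treg cultures also received TGF-b1 and anti-IFN-g. The labels give the genotypes as miR-150 KI and miR-150 WT. They do not say at which locus or under which promoter the knock-in allele was placed, and they give no age of the mice. The other groups used below are Th0 cultures (the antibodies to CD3 and CD28 alone) of 4 KI and 5 WT libraries, Th1 cultures (with IL-12 and anti-IL4 added) of 5 KI and 5 WT libraries, and Treg cultures of miR-150 knockout mice (Treg KO, 5 libraries). Poly(A) RNA was sequenced in pairs of 150 bp reads. A library is named by its group and number, as in Treg KI 3. What a number marks is not in the labels, so the p-values measure the spread between these libraries, which may be partly technical.

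MicroRNAs are short RNAs that guide Argonaute proteins to messenger RNAs, mostly by pairing of a seed at their 5' end with the 3' untranslated region, and lower the target's stability and translation. miR-150 is abundant in mature naive lymphocytes and declines when T cells are activated, and the mRNA of Myb, a transcription factor of lymphocyte progenitors, is its best known target. Regulatory T cells made in culture arise from naive CD4 T cells when TGF-beta acts together with the antigen receptor and induces Foxp3, the factor that defines the lineage.

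The hairpin of miR-150 lies on chromosome 7 and gives a strand from each arm. The strand for which a sequence was available is miR-150-3p, at chr7:45121798-45121819 of GRCm38.p6 on the plus strand (RefSeq). It is shown because its seed, bases 2 to 8, in capitals, defines the second group of genes searched below, those with TGTACCA in the 3' untranslated region.
miR-150-3p: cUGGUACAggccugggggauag
For miR-150-5p the matches searched were TTGGGAG, complementary to bases 2 to 8, and TTGGGAGA, the same with an A at its end. They were searched on the transcript's strand of the longest 3' untranslated region of each gene in GENCODE release 21 (GRCm38). The 28 bases around a match are shown for Myb (chromosome 10, minus strand), which holds a pair of TTGGGAGA matches in 1238 bases, for Cbl (chromosome 9, minus strand), a ubiquitin ligase that restrains receptor signals, and for P2rx7 (chromosome 5, plus strand), an ATP-gated ion channel. The match is in capitals.
Myb, base 855: attggaaaacttatTTGGGAGAattttg
Myb, base 956: ttctttttctttttTTGGGAGAtttgtg
Cbl, base 4140: ggctttgataatatTTGGGAGAttctgt
P2rx7, base 806: ttaagtcattacatTTGGGAGAggcggg
Of the 14625 genes tested that have such a region, 16.8% hold TTGGGAG, 5.09% hold TTGGGAGA and 10.7% hold TGTACCA.

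Total counts of the 10 libraries ran from 60815821 to 120420552, and 21873 of the 55416 genes in the table were tested. Levels are in CPM, read counts scaled to library size with TMM factors. A floor of 3 counts, which allows for counting error alone, stood at 0.0249 to 0.0493 CPM in single libraries. Transcripts of the mitochondrial genome held 2.90% to 4.01% of counts in Treg KI and 2.54% to 5.26% in Treg WT. The highest shares were those of Treg WT 2 and Treg WT 5, at 4.69% and 5.26%. Both also had the fewest genes with a count, 21557 and 21189, beside 23165 to 24134 in the rest of the 10 libraries. Treg WT 2 had the lowest total count.

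Treg KI 3, Treg WT 3 and Treg WT 4 stood apart from the other 7 libraries in Foxp3, Tbx21 and Ifng. Foxp3 (ENSMUSG00000039521, chromosome X) was at 479, 524, 61.97, 559 and 559 CPM in Treg KI 1 to 5, against 534, 519, 159, 47.7 and 596 CPM in Treg WT 1 to 5. The 3 lowest values were those of Treg WT 4, Treg KI 3 and Treg WT 3, and the groups overlapped. The same 3 libraries were the highest in Tbx21, the factor that defines Th1 cells, which was at 4.66, 4.58, 56.9, 2.50 and 1.496 CPM in Treg KI, against 3.30, 1.06, 38.4, 62.7 and 0.5998 CPM in Treg WT. They were also the highest in Ifng, the gene of interferon-gamma, which was at 3.204, 1.77, 160, 1.19 and 0.825 CPM in Treg KI, against 0.886, 0.782, 78.7, 846 and 0.622 CPM in Treg WT. Cd8a, which marks CD8 T cells and some dendritic cells, was at 12.9, 18.4, 318, 13.2 and 10.4 CPM in Treg KI, against 17.5, 4.16, 23.9, 443 and 4.90 CPM in Treg WT. In Cd8a the libraries apart were thus Treg KI 3 and Treg WT 4, with Treg WT 3 next to the rest. Results are therefore also given without Treg KI 3, Treg WT 3 and Treg WT 4 where that moved a count of calls or a list. Treg WT 1, Treg WT 2 and Treg WT 5 then remain as the wild type. In bulk RNA fewer cells of a type and less RNA per cell cannot be told apart.

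**Figure D1:**
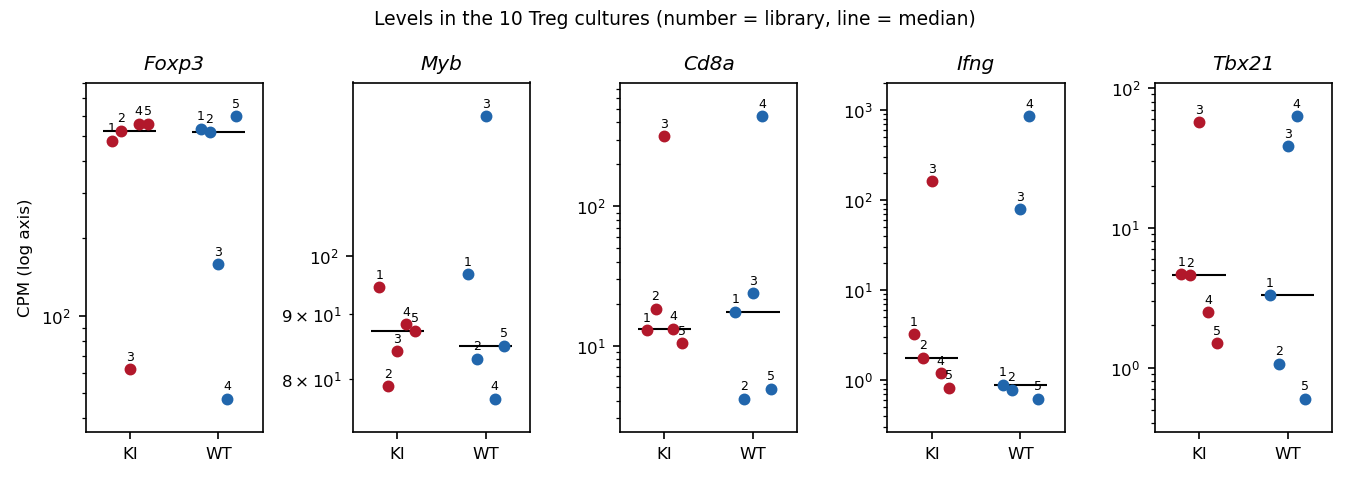
Levels of 5 genes in CPM on log axes, Treg KI (red) left of Treg WT (blue) in each panel. Each point is a library with its number, and lines are medians. Treg KI 3, Treg WT 3 and Treg WT 4 have the lowest Foxp3, at 61.97, 159 and 47.7 CPM, and the highest Ifng and Tbx21, while Myb overlaps between the groups.

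Of the labelled cell type, Foxp3 is the defining marker. Il2ra, the high-affinity subunit of the interleukin-2 receptor, which any activated T cell can carry, was at 1854, 1741, 1334, 1690 and 1873 CPM in Treg KI, against 1738, 1497, 2019, 1707 and 1847 CPM in Treg WT. Foxp3 averaged 437 ± 212 CPM in Treg KI and 371 ± 249 CPM in Treg WT (± SD over 5 libraries each), while its mean in the KI and WT libraries of the Th0 and Th1 cultures was 1.01 to 1.81 CPM. The lowest Treg library, at 47.7 CPM, was above the highest of those, at 3.19 CPM. The sex of the mice is not in the labels and was not the same throughout. The Y-linked gene Ddx3y was at 84.6, 75.2, 0, 0 and 0 CPM in Treg KI, against 92.4, 125.9, 0, 65.2 and 0 CPM in Treg WT. Xist, the RNA of the inactive X chromosome, was at 2277, 3285 and 2323 CPM in Treg KI 3, 4 and 5, against 2510 and 3816 CPM in Treg WT 3 and 5. Treg WT 4 held Xist at 77.2 CPM beside its Ddx3y, so that library carried transcripts of both kinds.

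The targeted gene could not be read in these poly(A) libraries, which do not measure the mature microRNA. Mir150 (chromosome 7, 45121757 to 45121821, GRCm38) received 1 count in total over the 5 Treg KI libraries and 2 counts over the 5 Treg WT libraries, under the floor of 3 counts in every library. A difference between knock-in and wild type at Mir150 was therefore not detectable in these libraries, and the label KI has no check from these counts. Genes beside it on chromosome 7 were measured. Gm45552, annotated antisense and next to the hairpin, was at 2.13, 3.39, 0.945, 3.09 and 2.24 CPM in Treg KI, against 3.00, 4.62, 0.506, 0.879 and 1.94 CPM in Treg WT. Its log2 fold change was 0.11 ± 0.41 (SE), and its value is uncertain because whether the counting used strand is not stated here. Other neighbours that were tested were Fcgrt at -1.08 ± 1.36, Prrg2 at 0.91 ± 0.41, Prr12 at 0.39 ± 0.23, Flt3l at 0.38 ± 0.24, Rcn3 at 0.31 ± 1.04, Rpl13a at 0.28 ± 0.17 and Nosip at 0.17 ± 0.18 on the log2 scale. The adjusted p of each was 0.596 or more. Gt(ROSA)26Sor on chromosome 6, a locus often used to insert transgenes in mice, was at 12.3, 10.4, 11.1, 10.6 and 12.1 CPM in Treg KI, against 13.9, 16.96, 11.2, 10.7 and 20.9 CPM in Treg WT. The groups overlapped, and its log2 fold change was -0.38 ± 0.18 with an adjusted p of 0.610. Its neighbours Thumpd3 and Setd5 had values of -0.18 ± 0.12 and 0.10 ± 0.08.

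Across all genes, no transcript differed between Treg KI and Treg WT past the threshold. At 0.05 after Benjamini-Hochberg adjustment, edgeR's quasi-likelihood test gave 0 of 21873 genes (0%) as called, and the lowest adjusted p was 0.490. At an unadjusted p under 0.05 there were 1758 genes (8.04%), of which 867 were higher (3.96%) and 891 lower (4.07%) in Treg KI. DESeq2 called 5 genes, 3 with higher values and 2 with lower. Without Treg KI 3, Treg WT 3 and Treg WT 4, edgeR called 8 genes. Ap1s2, a subunit of a clathrin adaptor, was the 1 with a lower value in Treg KI, at -1.01 ± 0.20, beside -0.69 with all libraries. The others, with higher values, were Ppfia4, Cideb, Fads3, Ddx25, Syde2, Gm10461 and Gm46350, of which Cideb, Fads3 and Gm10461 had negative values with all libraries. The median size of the log2 fold change over all genes was 0.22, below the median SE of 0.29. In 159 genes (0.727%) every Treg KI library was above every Treg WT library, and in 93 (0.425%) every Treg KI library was below. The absence of calls does not show that the genotypes were alike.

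**Figure D2:**
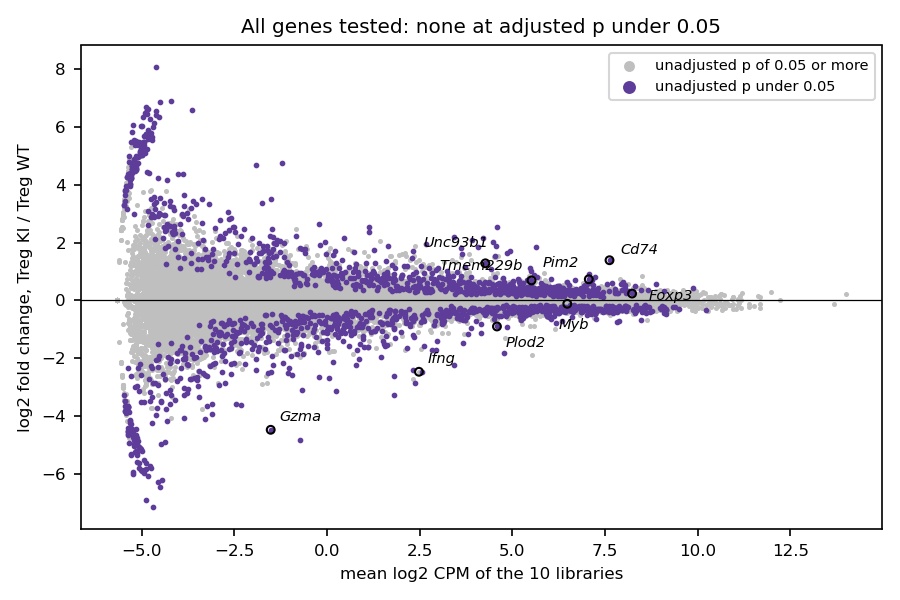
Log2 fold change of Treg KI over Treg WT against mean log2 CPM for the 21873 genes tested. Points in purple have an unadjusted p under 0.05, and no gene has an adjusted p under 0.05. Fold changes spread most widely among genes of low count, and Foxp3 and Myb lie near 0.

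The 5 genes called by DESeq2 were all of low count, and they were named after their values were seen. Ppfia4, a gene of the liprin family of synapse scaffolds, was at 0.238, 0.408, 0.276, 0.299 and 0.155 CPM in Treg KI, against 0, 0, 0.0382, 0.0716 and 0 CPM in Treg WT. Every Treg KI library was above every Treg WT library, and the log2 fold change was 3.51 ± 0.75 by edgeR with an adjusted p of 0.490. Mslnl was at 0.0415 to 0.268 CPM in Treg KI, against 0 in each Treg WT library. Igkv12-89, a segment of the immunoglobulin kappa light chain, was at 0 to 0.284 CPM in Treg KI, against 0 in each Treg WT library. Adamts20, a secreted protease, was at 0 in each Treg KI library, against 0 to 0.156 CPM in Treg WT. The fifth was the predicted gene Gm49890. The floor of 3 counts stood at 0.0249 to 0.0493 CPM, and Ppfia4 lay above it in every Treg KI library. Mslnl, Igkv12-89 and Adamts20 were at 0.284 CPM or less in every library.

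Given as values and not as changes, the named genes (predicted genes and Rik names left out) of smallest p whose mean log2 CPM was 2 or more were 8 with higher and 8 with lower means in Treg KI. Their adjusted p ran from 0.490 to 0.510. Tmem229b, a membrane protein gene, was at 58.4, 72.1, 48.3, 54.5 and 62.6 CPM in Treg KI, against 52.8, 37.2, 34.9, 28.4 and 30.3 CPM in Treg WT. Only Treg WT 1 reached into the range of Treg KI, and the log2 fold change was 0.69 ± 0.16. Without Treg WT 1, Tmem229b had a value of 0.86 ± 0.15 and an adjusted p of 0.0241, and the predicted gene Gm44878 was the other gene called. Pim2, a kinase gene that favours survival of T cells and is known to act in Foxp3-positive cells, was at 159, 176, 241, 117.7 and 192 CPM in Treg KI, against 131.9, 78.3, 129.2, 117.4 and 77.4 CPM in Treg WT. The groups overlapped through Treg KI 4, and the value was 0.73 ± 0.18. Pdk1, the kinase that keeps pyruvate out of mitochondrial oxidation, was at 275, 226, 232, 210 and 203 CPM in Treg KI, against 182, 158, 193, 118.8 and 127.1 CPM in Treg WT. Its groups did not overlap, and the value was 0.56 ± 0.15.

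Among the other genes with higher means, the groups were apart for Chkb, Ppcdc and Tgfbr3l. Chkb, the choline kinase that starts phosphatidylcholine synthesis, averaged 36.03 ± 4.30 CPM in Treg KI and 26.2 ± 4.07 CPM in Treg WT (± SD over 5 libraries each). Ppcdc, an enzyme of coenzyme A synthesis, averaged 44.99 ± 8.20 CPM in Treg KI and 30.8 ± 2.97 CPM in Treg WT. Tgfbr3l averaged 7.15 ± 1.53 CPM in Treg KI and 4.38 ± 0.564 CPM in Treg WT. Their log2 fold changes were 0.46 ± 0.12, 0.55 ± 0.14 and 0.71 ± 0.19. Unc93b1, which carries nucleic-acid sensing Toll-like receptors to endosomes, was at 27.2, 26.04, 75.5, 18.3 and 23.1 CPM in Treg KI, against 22.5, 8.07, 14.04, 18.7 and 6.71 CPM in Treg WT. Treg KI 3 held the highest value, and the log2 fold change was 1.28 ± 0.35. H2-Q4, a class I gene with near-identical copies among which reads can be split, had an uncertain value of 0.61 ± 0.17.

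Among 7 of the genes with lower means, the groups were apart for Dse and Raph1. Raph1, an actin regulator of cell protrusions, was at 35.3, 32.6, 28.3, 36.8 and 28.1 CPM in Treg KI, against 40.8, 47.9, 49.7, 57.04 and 43.4 CPM in Treg WT, a log2 fold change of -0.57 ± 0.16. Dse, an epimerase that makes dermatan sulfate, averaged 7.04 ± 1.13 CPM in Treg KI and 11.7 ± 3.99 CPM in Treg WT (± SD over 5 libraries each), and its value was -0.73 ± 0.19. Plod2, a lysyl hydroxylase of collagen, averaged 18.4 ± 5.99 CPM in Treg KI and 34.5 ± 13.4 CPM in Treg WT, with overlap and a value of -0.90 ± 0.24. Ift57, a part of the machinery that builds cilia, Ro60, an RNA-binding autoantigen, Golim4, a Golgi protein, and Ywhaz, a 14-3-3 adaptor, overlapped between the groups. Their log2 fold changes were -0.70 ± 0.19, -0.54 ± 0.15, -0.42 ± 0.12 and -0.29 ± 0.08.

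**Figure D3:**
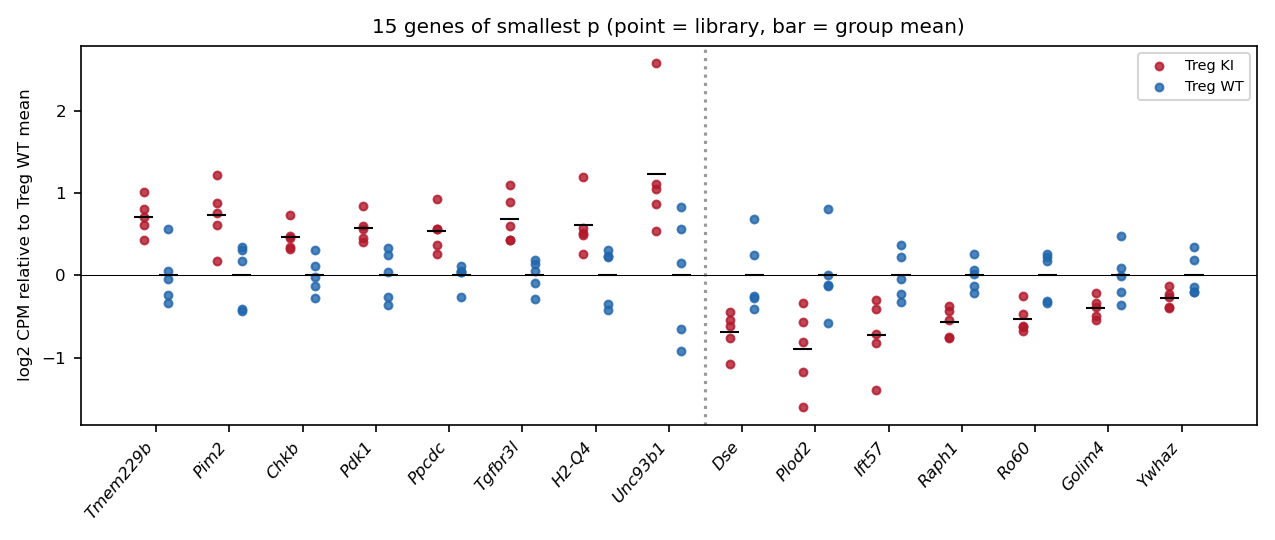
Log2 CPM of each library relative to the mean of Treg WT for 15 genes of smallest p, predicted genes left out, Treg KI (red) left of Treg WT (blue), with bars for group means. The 8 genes left of the dotted line have higher means in Treg KI, up to 1.28 on the log2 scale for Unc93b1, whose highest point is Treg KI 3, and the 7 on the right have lower means. No gene shown passed the threshold.

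Whether the known targets of miR-150 were lower in knock-in cells could be read from the mRNA levels. Myb (ENSMUSG00000019982, chromosome 10) was at 94.5, 79.04, 84.2, 88.4 and 87.3 CPM in Treg KI, against 96.7, 83.03, 128.7, 77.3 and 85.0 CPM in Treg WT. The 5 Treg KI libraries lay inside the range of Treg WT, whose highest value was that of Treg WT 3. The log2 fold change was -0.12 ± 0.23, with a 95% interval of -0.59 to 0.35 and an adjusted p of 0.928. Beside it, Myb had values of -0.36 in Th0 KI against Th0 WT and -0.36 in Th1 KI against Th1 WT, neither past the threshold. In Treg KO against Treg WT, which shares the Treg WT libraries, its value was 1.10 with an adjusted p of 0.0286.

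The other reported targets, collected from reports in several cell types and species, gave no call. Cbl averaged 410 ± 40.7 CPM in Treg KI and 423 ± 40.7 CPM in Treg WT (± SD over 5 libraries each), and its log2 fold change was -0.04 ± 0.10 with a 95% interval of -0.25 to 0.16. P2rx7 was at 15.2, 10.7, 2.48, 15.3 and 8.88 CPM in Treg KI, against 13.3, 12.6, 9.67, 3.69 and 8.15 CPM in Treg WT. Its lowest values were those of Treg KI 3 and Treg WT 4, and its log2 fold change was 0.15 ± 0.38. Foxo1, which keeps T cells quiescent, was at -0.08 ± 0.17, Egr2, an immediate early factor of receptor signals, at 0.04 ± 0.26, and Zeb1, a repressor of interleukin-2, at 0.04 ± 0.16. Of 25 listed targets 24 were tested and Nanog was at 0 in all 10 libraries. None of the 24 had an unadjusted p under 0.05, 18 had positive and 6 negative values, and their median was 0.11 beside 0 over all genes tested. The median was -0.018 without Treg KI 3, Treg WT 3 and Treg WT 4. Values ran from -1.72 for Gab1, an adaptor with means of 0.00622 CPM in Treg KI and 0.0220 CPM in Treg WT, to 0.35 ± 0.19 for Tet3, a demethylating dioxygenase. Of the 24, 14 held TTGGGAG.

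Without regard to the length of the 3' untranslated region, genes with TTGGGAG, TTGGGAGA or TGTACCA had medians just under those of genes without it. The 2457 genes with TTGGGAG had a median log2 fold change of -0.0027, beside 0.0036 in the 12168 genes without it. Of those with TTGGGAG, 3.83% were higher and 4.97% lower in Treg KI at an unadjusted p under 0.05, beside 4.53% and 4.59% of those without it. The 745 genes with TTGGGAGA had a median of -0.028, beside 0.0036 in genes without it. Of those with TTGGGAGA, 3.49% were higher and 5.77% lower, beside 4.46% and 4.59% of those without it, and these shares were not tested. The 1566 genes with TGTACCA had one of -0.031, beside 0.0065 in genes without TGTACCA. Genes with TTGGGAG have longer 3' untranslated regions, with medians of 2461 bases with it and 1066 bases without it. Among genes in the upper tercile of that length, the median was -0.012 with TTGGGAG and -0.036 without it. It was 0.0012 with TTGGGAG and 0.010 without it in the middle tercile, and 0.051 and 0.037 in the lower. The 429 genes with 2 or more TTGGGAG had a median of 0.0039. Genes with TTGGGAGA or TGTACCA, whose median lengths were 2676 and 2589.5 bases, were not compared by length. The difference of medians between genes with and without TTGGGAG was -0.023, -0.017, -0.0082, 0.016 and -0.051 in Treg KI 1 to 5, against -0.026, 0.043, 0.00050, -0.080 and 0.062 in Treg WT 1 to 5. The Treg KI libraries lay inside the range of Treg WT. Among genes that work with microRNAs, 15 of processing and Argonaute function had 0 members at an unadjusted p under 0.05 and a median of 0.041. Of 6 genes of the MYB family and its partners, 1 was higher at that p, beside 3.96% of all genes, and the median was 0.13. It was the histone methyltransferase Kmt2a at 0.36 ± 0.13.

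The regulatory T cell genes gave no call. Of 30 core genes tested, 2 were higher (Cd83 and Izumo1r) and 1 lower (Il10) at an unadjusted p under 0.05, beside 3.96% and 4.07% of all genes, a share near that of all genes, and the median was 0.055. Foxp3 itself had a log2 fold change of 0.23 ± 0.51, with a 95% interval of -0.80 to 1.27. Ctla4, the inhibitory receptor, was at 510, 449, 549, 437 and 383 CPM in Treg KI, against 437, 375, 577, 384 and 323 CPM in Treg WT, with overlap and a value of 0.15 ± 0.24. Itgae, the gene of the integrin chain CD103 that TGF-beta induces, was at 29.3, 47.9, 127.03, 83.8 and 15.2 CPM in Treg KI, against 32.8, 101.5, 11.2, 40.4 and 143.5 CPM in Treg WT. Its values varied more within each group than between the groups, with a log2 fold change of -0.12 ± 0.50. Ikzf2, the gene of Helios, had one of -0.23 ± 0.39. Cd83, an activation marker also found on dendritic and B cells, had the smallest p among the core genes with a positive value. It was at 57.6, 49.1, 188, 51.7 and 26.9 CPM in Treg KI, against 47.9, 30.3, 39.2, 25.98 and 28.9 CPM in Treg WT, with Treg KI 3 highest and a value of 1.12 ± 0.44. Il10, the suppressive cytokine, was at 0, 0.0816, 0.284, 0 and 0.0327 CPM in Treg KI, against 0.330, 0, 1.02, 4.98 and 0 CPM in Treg WT. Its highest values were those of Treg WT 4 and Treg WT 3, and its log2 fold change was -3.94 ± 1.498 with an adjusted p of 0.587.

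Genes of the TGF-beta pathway, the signal added to these cultures, numbered 23 and had a median of -0.11. At an unadjusted p under 0.05, 0 were higher and 1 lower, beside 3.96% and 4.07% of all genes. The 1 was Tgfbr1, the type I receptor, at 235, 219, 77.6, 358 and 223 CPM in Treg KI, against 278, 549, 186, 77.9 and 722 CPM in Treg WT. The groups overlapped, the lowest values were those of Treg KI 3 and Treg WT 4, and the log2 fold change was -0.71 ± 0.34. Itgb8, the integrin chain that frees latent TGF-beta, averaged 2.17 ± 1.20 CPM in Treg KI and 4.197 ± 1.49 CPM in Treg WT (± SD over 5 libraries each), and its value was -0.95 ± 0.49.

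With all libraries, the lists of the other helper lineages had negative median log2 fold changes of Treg KI over Treg WT. When the 3 libraries apart were left out, the Th1 median turned positive and the Th2 and Th17 medians stayed negative. The median of 26 Th1 genes was -0.42 with 0 higher and 1 lower at an unadjusted p under 0.05, and 0.33 without Treg KI 3, Treg WT 3 and Treg WT 4. The value for Ifng was -2.47 ± 1.40, and 1.18 without these 3 libraries. The 3 libraries were picked after their Ifng and Tbx21 levels were seen, so the shift of Ifng and the Th1 median is no test. Il18rap, a chain of the interleukin-18 receptor, was the Th1 gene of smallest p, at 34.5, 36.9, 31.1, 40.8 and 18.7 CPM in Treg KI, against 51.9, 44.4, 29.5, 67.9 and 54.8 CPM in Treg WT, a value of -0.62 ± 0.21 with overlap. The median of 13 Th2 genes was -0.42 with 0 higher and 4 lower (Il1rl1, Il10, Il13 and Areg) at that p. Over all genes 3.96% were higher and 4.07% lower. The Th2 median was -0.25 without the 3 libraries and -0.74 with WT 4, KO 2 and KI 3 of each culture left out. Il1rl1, the interleukin-33 receptor, averaged 2.55 ± 1.87 CPM in Treg KI and 7.61 ± 10.7 CPM in Treg WT (± SD over 5 libraries each), with Treg WT 4 at 26.6 CPM and a value of -1.57 ± 0.59. The median of 19 Th17 genes was -0.49 with 0 higher and 1 lower (Csf2), and -0.33 without the 3 libraries.

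The 24 cytokine genes had a median of -0.64, with 2 higher (Csf1 and Ltb) and 4 lower (Il10, Il13, Csf2 and Il9) at an unadjusted p under 0.05, beside 3.96% and 4.07% of all genes, and a median of -0.035 without Treg KI 3, Treg WT 3 and Treg WT 4. Csf2, the gene of GM-CSF, was at 0.321, 0.536, 1.13, 0.114 and 0.466 CPM in Treg KI, against 0.264, 0, 2.49, 6.02 and 0.894 CPM in Treg WT, a log2 fold change of -1.91 ± 0.87. Il13 was at 0.0415, 0, 0.719, 0 and 0 CPM in Treg KI, against 0.0659, 0, 2.19, 7.76 and 0 CPM in Treg WT. In both genes Treg WT 4 and Treg WT 3 held the highest values. Il10 was also counted among the core and Th2 genes, Il13 among the Th2 genes and Csf2 among the Th17 genes. The counts of these lists are therefore not separate. The summed level of the cytokine genes was 616 to 764 CPM in Treg KI and 571 to 1716 CPM in Treg WT, the highest being that of Treg WT 4. Among 23 chemokine and chemokine receptor genes, 1 was higher and 0 lower at an unadjusted p under 0.05. It was Ccl22, a ligand of CCR4, at 99.2, 78.9, 26.3, 52.002 and 98.1 CPM in Treg KI, against 44.6, 34.2, 48.4, 16.4 and 31.1 CPM in Treg WT, a value of 1.02 ± 0.44. Of its Treg KI libraries only Treg KI 3 lay inside the range of Treg WT.

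Interferon-stimulated genes had positive values nearly throughout, with no call. Of 54 tested, 53 had a positive log2 fold change and 1 a negative one, 7 were higher and 0 lower at an unadjusted p under 0.05, beside 3.96% and 4.07% of all genes, and the median was 0.39 beside 0 over all genes tested. Genes induced by the same signal are not independent observations. Gbp3, a guanylate-binding protein gene induced by interferon, was at 41.99, 42.5, 61.98, 37.8 and 25.9 CPM in Treg KI, against 38.1, 22.8, 32.02, 19.8 and 19.7 CPM in Treg WT, a value of 0.67 ± 0.24 with an adjusted p of 0.587. Gbp9 was at 68.1, 73.4, 93.0, 68.1 and 44.8 CPM in Treg KI, against 66.8, 39.8, 38.2, 25.7 and 29.8 CPM in Treg WT, a value of 0.79 ± 0.33. In both genes Treg KI 3 was highest and the groups overlapped, through Treg KI 5 and Treg WT 1 and, for Gbp3, also Treg KI 4 and Treg WT 3. Isg15, a ubiquitin-like protein gene, was at 11.2, 5.46, 9.44, 2.93 and 6.82 CPM in Treg KI, against 8.25, 0.313, 11.5, 2.89 and 0.147 CPM in Treg WT. The spread of Isg15 within Treg WT was wider than the distance between the groups, with a value of 0.63 ± 0.75. The negative value was that of Iigp1, a GTPase, at -0.12 ± 0.51. The summed level of the list was 5937, 6154, 7904, 5002 and 4791 CPM in Treg KI, against 5967, 3369, 7234, 4283 and 3090 CPM in Treg WT. Treg WT 2 and Treg WT 5 were lowest, and both remain when Treg KI 3, Treg WT 3 and Treg WT 4 are left out. The median of the list was 0.53 without Treg KI 3, Treg WT 3 and Treg WT 4, and 0.24 with WT 4, KO 2 and KI 3 of each culture left out. It was 0.89 in Th0 KI against Th0 WT and 0.40 in Th1 KI against Th1 WT, and 1.13 in Treg KO against Treg WT, which shares the Treg WT libraries.

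**Figure D4:**
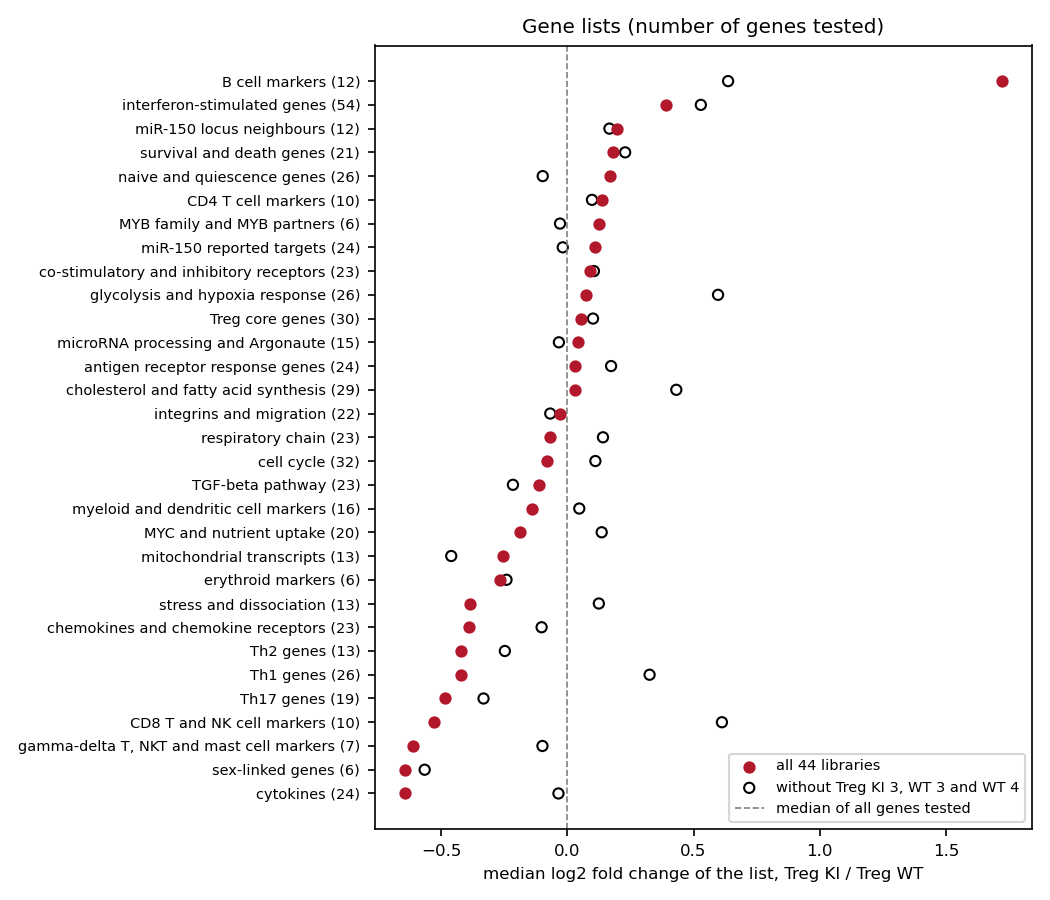
Median log2 fold change of Treg KI over Treg WT for 31 gene lists, with the number of genes tested in brackets. Filled points use all 44 libraries, open points leave out Treg KI 3, Treg WT 3 and Treg WT 4, and the dashed line is the median of all genes. The B cell markers lie highest, at 1.72 with all libraries and 0.64 without the 3, and the Th1 list changes sign between both settings.

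Transcripts of B cells gave the highest median of the lists, and Treg KI 3 was the highest library in their summed level. Of 12 B cell markers, 6 were higher and 0 lower at an unadjusted p under 0.05, beside 3.96% and 4.07% of all genes, 11 had positive values, with Jchain the other, and the median was 1.72 beside 0 over all genes. Cd22, an inhibitory receptor of B cells, was at 28.9, 18.4, 107.6, 13.6 and 6.33 CPM in Treg KI, against 17.7, 6.32, 0.793, 7.10 and 6.26 CPM in Treg WT, a log2 fold change of 2.19 ± 0.94. Ebf1, a factor that commits cells to the B lineage, was at 5.27, 4.08, 24.6, 3.92 and 2.26 CPM in Treg KI, against 4.36, 1.53, 0.526, 1.97 and 2.42 CPM in Treg WT, a value of 1.89 ± 0.85. In both genes Treg KI 3 was highest and Treg WT 3 lowest. The summed level of the 12 markers was 779, 807, 1443, 640 and 583 CPM in Treg KI, against 658, 362, 251, 328 and 334 CPM in Treg WT. Only Treg WT 1 reached into the range of Treg KI. Without Treg KI 3, Treg WT 3 and Treg WT 4 the median of the list was 0.64, and with WT 4, KO 2 and KI 3 of each culture left out it was 0.87.

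Class II genes of antigen presenting cells followed the same libraries. Cd74, the invariant chain, was at 309, 312, 703, 200 and 217 CPM in Treg KI, against 238, 99.3, 89.0, 114.7 and 125.005 CPM in Treg WT, a log2 fold change of 1.39 ± 0.56. H2-Aa was at 83.6, 73.3, 354, 61.2 and 33.8 CPM in Treg KI, against 66.3, 27.9, 9.49, 32.6 and 34.3 CPM in Treg WT, a value of 1.83 ± 0.87. Treg KI 3 was highest in both. The 16 myeloid and dendritic markers tested, among which these are listed, had a median of -0.14. At an unadjusted p under 0.05, 2 were higher and 0 lower, beside 3.96% and 4.07% of all genes. The summed level of the markers was 304 to 1241 CPM in Treg KI and 156 to 419 CPM in Treg WT. The part of such cells in the values of Cd83 and Unc93b1, whose highest library was also Treg KI 3, was not tested.

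The markers of other cells were spread by library more than by genotype. The 10 CD8 T and NK cell markers had a median of -0.53, and 0.61 without Treg KI 3, Treg WT 3 and Treg WT 4. Their summed level was 50.02, 55.3, 575, 38.3 and 34.2 CPM in Treg KI, against 50.9, 19.7, 147, 1051 and 20.2 CPM in Treg WT. Gzma, a granzyme of killer cells, was at 0.187, 0.128, 7.50, 0 and 0.0490 CPM in Treg KI, against 0.141, 0, 8.17, 169 and 0 CPM in Treg WT. The same 3 libraries thus held the highest levels of these transcripts. Their part in the values of Ifng, Tbx21 and the Th1 list was not tested. Leaving them out cannot test it, because they were picked after their Ifng and Tbx21 levels were seen. Erythroid markers summed to at most 2.97 CPM in any of the 10 libraries. Markers of gamma-delta T, NKT and mast cells summed to 10.9 to 32.9 CPM in Treg KI and 11.8 to 47.99 CPM in Treg WT. The 10 CD4 T cell markers had 10 positive values with a median of 0.14 and none at an unadjusted p under 0.05, and their summed level was 2817 to 3872 CPM in Treg KI and 2728 to 3654 CPM in Treg WT.

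Genes of the naive and quiescent state, where miR-150 is abundant, had a median of 0.17 over 26 tested, with 2 higher and 0 lower at an unadjusted p under 0.05, beside 3.96% and 4.07% of all genes. The median was -0.098 without Treg KI 3, Treg WT 3 and Treg WT 4, and 0.077 with WT 4, KO 2 and KI 3 of each culture left out. The 2 higher genes were Cd27, a co-stimulatory receptor, and Foxo3, a factor of quiescence. Cd27 was at 118.03, 159, 136.7, 140 and 120.9 CPM in Treg KI, against 123.6, 103.1, 67.1, 108.3 and 98.8 CPM in Treg WT, and Treg WT 1 alone reached into the range of Treg KI. Its log2 fold change was 0.43 ± 0.18, and that of Foxo3 was 0.32 ± 0.15. Among 22 integrin and migration genes the 1 at an unadjusted p under 0.05 was Cd44, the activation marker, at 177, 183, 290, 177 and 118.6 CPM in Treg KI, against 182, 162, 436, 588 and 234 CPM in Treg WT, a value of -0.76 ± 0.31. Treg WT 4 and Treg WT 3 were its highest libraries. Among 23 co-stimulatory and inhibitory receptors, 2 were higher and 1 lower, namely Cd27 again and Tnfrsf14, a receptor of the TNF family, at 0.46 ± 0.19, and Havcr2, the gene of TIM-3, at -2.53 ± 1.05. Havcr2 was at 0.0981 to 1.09 CPM in Treg KI and 0 to 8.82 CPM in Treg WT. Among 24 genes induced by the antigen receptor, Nfkbia, the inhibitor of NF-kB, was the 1 at an unadjusted p under 0.05, with a value of 0.37 ± 0.17.

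With all libraries, growth and metabolic lists had medians between -0.26 and 0.18, beside 0 over all genes. Counts of higher and lower genes here are at an unadjusted p under 0.05, beside 3.96% and 4.07% of all genes. The 32 cell cycle genes had a median of -0.082 with 0 higher and 1 lower, Rrm2, a subunit of ribonucleotide reductase, at -0.29 ± 0.14. The 26 genes of glycolysis and the hypoxia response had a median of 0.073 with 1 higher, Pdk1, and 0 lower, and a median of 0.60 without Treg KI 3, Treg WT 3 and Treg WT 4. Their summed level was 15305, 9717, 16645, 9677 and 9885 CPM in Treg KI, against 10276, 6363, 17596, 21533 and 5322 CPM in Treg WT, so the libraries apart and Treg KI 1 were the highest. The 29 genes of cholesterol and fatty acid synthesis had a median of 0.030, and 0.43 without the 3 libraries. Their summed level was 3091 and 2593 CPM in Treg WT 2 and Treg WT 5, beside 4736 to 8737 CPM in the rest. Treg WT 2 and Treg WT 5 were also the lowest in the glycolysis list. Both remain when the 3 libraries are left out, with Treg WT 1 as the only other wild type. The 20 genes of MYC and nutrient uptake had a median of -0.19 with 0 higher and 1 lower, the phosphate transporter Slc20a1 at -0.32 ± 0.11. The 21 survival and death genes had a median of 0.18, with 0 at an unadjusted p under 0.05. The 23 nuclear genes of the respiratory chain had a median of -0.068. The 13 mitochondrial transcripts had 13 negative values with a median of -0.26 and 0 at an unadjusted p under 0.05. Their summed level was highest in Treg WT 2 and Treg WT 5, at 43114 and 50685 CPM, beside 24155 to 38116 CPM in the rest. Without the 3 libraries, which leaves both in, their median was -0.46. The 13 stress and dissociation genes had 13 negative values with a median of -0.38, 1 of them (Hspa1b) lower at an unadjusted p under 0.05, and a median of 0.12 without the 3 libraries. Their summed level was highest in Treg WT 3 and Treg WT 4, at 10743 and 10470 CPM.

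To see whether the knock-in acted otherwise in Treg cultures than in the other cultures, the difference of effects was tested. By edgeR 0 genes (0%) differed between the KI effect in Treg and that in Th0, with 1360 genes (6.22%) at an unadjusted p under 0.05 and 4 by DESeq2. Likewise 0 genes (0%) differed between the KI effect in Treg and that in Th1, with 725 genes (3.31%) at an unadjusted p under 0.05 and 5 by DESeq2. The effects within the other cultures gave calls. In Th0, 0.512% of genes were called, 0.471% higher and 0.0411% (9 genes) lower in KI. In Th1, 6 genes (0.0274%) were called, 2 higher (0.00914%) and 4 lower (0.0183%). Without Treg KI 3, Treg WT 3 and Treg WT 4, edgeR called 3 genes for Treg minus Th0, namely Ppfia4, Gm10461 and Gm46350 at an adjusted p of 0.0419, and 4 for Treg minus Th1, these and Fads3. With all libraries edgeR called none, so a difference between the cultures rests on the choice of tool and libraries.

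Genes called in the other cultures were then read in Treg. The genes higher in Th0 KI had a median log2 fold change of 0.74 in Th0 and 0.17 in Treg, where 90 were positive and 13 negative and 13 (12.6%) were higher at an unadjusted p under 0.05, beside 3.96% of all genes. Without Treg KI 3, Treg WT 3 and Treg WT 4 their median in Treg was 0.044, beside 0.031 over all genes, and with WT 4, KO 2 and KI 3 of each culture left out it was 0.0092, beside -0.0040. The 9 genes lower in Th0 KI had a median of -1.37 in Th0 and -0.23 in Treg, and 3 of them (33.3%) were lower at an unadjusted p under 0.05, beside 4.07% of all genes. These 3 were F2r, the thrombin receptor, Xk, a membrane protein of the red cell Kx antigen, and Tnpo1, a nuclear import receptor. Same-numbered libraries of a genotype may come from the same mouse in all cultures, which the labels do not state, so the cultures may not be independent.

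Colq, which anchors acetylcholinesterase, was called higher in KI in both Th0 and Th1. In Treg it was at 5.99, 5.90, 8.14, 5.20 and 6.16 CPM in Treg KI, against 4.94, 2.38, 4.06, 2.42 and 4.80 CPM in Treg WT. The groups did not overlap, and its log2 fold change was 0.75 ± 0.24 in Treg, 1.36 in Th0 and 1.25 in Th1. F2r, lower in KI in both Th0 and Th1, was at 32.4, 33.2, 26.2, 37.6 and 24.6 CPM in Treg KI, against 40.1, 40.05, 34.9, 59.4 and 53.9 CPM in Treg WT. Treg KI 4 alone lay inside the range of Treg WT, and the value was -0.57 ± 0.21 in Treg, -1.21 in Th0 and -1.32 in Th1. Them4, a thioesterase lower in Th1 KI, was at 4.31, 4.44, 2.17, 4.82 and 3.92 CPM in Treg KI, against 5.44, 6.87, 5.23, 4.98 and 7.82 CPM in Treg WT, with no overlap and a value of -0.63 ± 0.24. Nectin3, an adhesion molecule lower in Th1 KI, averaged 0.490 ± 0.317 CPM in Treg KI and 1.501 ± 0.679 CPM in Treg WT (± SD over 5 libraries each), and its value was -1.61 ± 0.49 with overlap. The adjusted p of these 4 genes in Treg was 0.510 to 0.589. The last genes called in Th1, Gprin3 and Acap2, had values in Treg of -0.17 ± 0.24 and 0.02 ± 0.12. The genes called higher in Th0 KI had 90 positive and 13 negative values in Treg, and 4 of them had no overlap. These were Colq, Atraid at 0.33 ± 0.13, Psd2 at 0.78 ± 0.38 and the predicted gene 1600020E01Rik. In each of them every Treg KI library was above every Treg WT library, beside 0.727% of all genes.

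**Figure D5:**
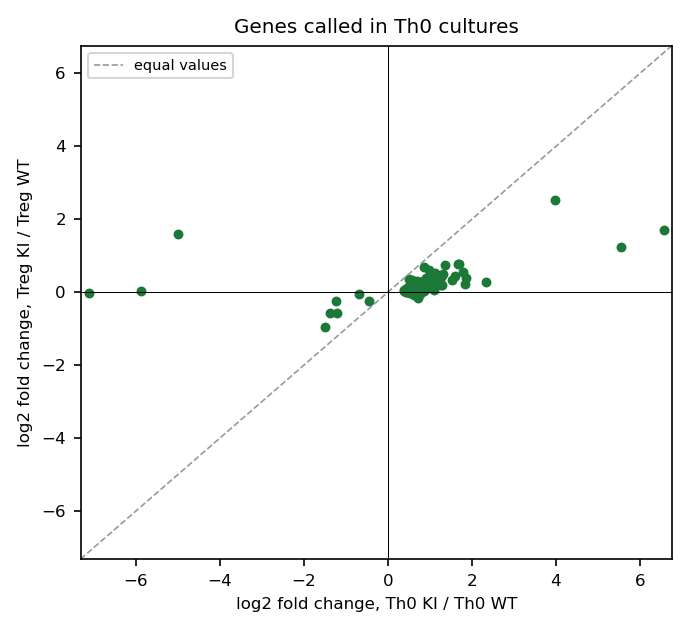
Log2 fold change of Treg KI over Treg WT (vertical) against Th0 KI over Th0 WT (horizontal) for the genes called in Th0, with a dashed line of equal values. The genes were chosen by the horizontal axis, so their distance from 0 on it is given by the choice. Most of the higher genes lie above 0 but under the line, with medians of 0.17 in Treg and 0.74 in Th0.

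Treg KO against Treg WT, which shares the 5 Treg WT libraries, called 37 genes (0.169%), 23 higher (0.105%) and 14 lower (0.064%). The values of the knockout and the knock-in are therefore set side by side without a test between them. Pdk1 had a log2 fold change of 0.56 ± 0.15 for KI and 0.84 for KO, H2-Q4 0.61 ± 0.17 and 0.74, Gbp3 0.67 ± 0.24 and 1.42, and Slc20a1 -0.32 ± 0.11 and -0.56. For these 4 genes the KO value passed the threshold and the KI value did not. They had been named for a small p in KI against WT, so their KI values were favoured by that choice. Most of the 37 genes called in KO are not set beside them. Both values of a gene rest on the same wild-type libraries. Myb, called in KO at 1.10, had a value of -0.12 ± 0.23 for KI. The sign of its KI value is not settled, as its 95% interval of -0.59 to 0.35 holds 0. Without Treg WT 3 the KI value was 0.013.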

How the data were processed

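Trimming, STAR alignment and coordinate sorting are named per the file headers, and the authors deposited whole-number counts per gene for each library and lane. No source used here gives the counting tool, its strand setting, the annotation or the treatment of reads shared between genes. Per the submitters' processing notes the build is GRCh38, a human assembly, while the gene identifiers are those of mouse.

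Counts of the 2 lanes were added for each library. Libraries were compared in pairs within their group for copies, and the median chi-square of a gene was 6.93 or more over 20 pairs, beside 0.455 for a copy. The test was edgeR 4.0.16 (limma 3.58.1) in R 4.3.3, with TMM factors, the default filter by group and a quasi-likelihood model of 9 group means over all 44 libraries. Benjamini-Hochberg adjustment ran over the 21873 genes tested with calls at 0.05. It was tried on simulated data. Levels are CPM with TMM factors, given with SD, and log2 fold changes are given with SE and edgeR's p. Of the tested identifiers 99.1% were found in GENCODE release 21 (GRCm38). The normalised table was not used.

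Genes were named by a rule: Mir150 and its neighbours, Myb, Foxp3, Ifng, Tbx21 and Cd8a, the 8 genes of smallest p each way (mean log2 CPM 2 or more), and up to 2 members of each list. A few of these are not reported here. The other genes were named after their values were seen. The 31 lists and the comparison were chosen with earlier results of these data known. Alternatives were RLE factors, DESeq2 1.42.0, no filter, the compared groups only, library number as a block, Cd8a as a term, leaving out the numbers WT 4, KO 2 and KI 3, and leaving out each library. Leaving out Treg KI 3, Treg WT 3 and Treg WT 4, and a term for Y-linked level, were chosen after seeing the data.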

Additional observations from a re-analysis of the deposited data

Results flagged for a closer look

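Among 220 groups of 5 libraries examined, 19 held a library far from the other 4 on the log2(CPM + 0.5) scale, where chance gives about 1 in 20. Of these, 14 were Treg KI 3, 3 Treg WT 4, 1 Treg KI 2 and 1 Treg WT 5.

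Treg KI 3 was the lowest Treg KI library for Foxp3, at 61.97 CPM with the others at 479 to 559 CPM, for Abcg1, a cholesterol exporter, at 26.5 CPM with the others at 85.0 to 111.6 CPM, and for Them4, at 2.17 CPM with the others at 3.92 to 4.82 CPM. It was the highest for genes of Th1 and killer cells. Ifng was at 160 CPM with the others at 0.825 to 3.204 CPM, and Tbx21 at 56.9 CPM with the others at 1.496 to 4.66 CPM. Cd8a was at 318 CPM with the others at 10.4 to 18.4 CPM. Gzma was at 7.50 CPM with the others at 0 to 0.187 CPM, and Klra7, an NK cell receptor, at 1.25 CPM with the others at 0.0413 to 0.207 CPM. It was also the highest for Unc93b1, at 75.5 CPM with the others at 18.3 to 27.2 CPM, Ifngr2, an interferon-gamma receptor chain, at 66.3 CPM with the others at 38.9 to 44.7 CPM, and Il13, at 0.719 CPM with the others at 0 to 0.0415 CPM. Acap2 was at 135.9 CPM with the others at 97.5 to 103.97 CPM. Beside the miR-150 locus, Rcn3 was at 9.23 CPM with the others at 0.878 to 1.19 CPM, and Fcgrt at 1.45 CPM with the others at 0.186 to 0.384 CPM.

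Treg WT 4 was the highest Treg WT library for Rcn3, at 6.93 CPM with the others at 0.656 to 1.10 CPM, and for the heat shock gene Hspa1b, at 1.20 CPM with the others at 0.0626 to 0.217 CPM. It was the lowest for Psd2, at 0.695 CPM with the others at 1.29 to 1.46 CPM. Treg KI 2 was the highest Treg KI library for Tnfrsf14, at 54.8 CPM with the others at 42.2 to 43.7 CPM. Treg WT 5 was the lowest Treg WT library for Ppcdc, at 25.7 CPM with the others at 31.5 to 33.3 CPM.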

How the results depend on the processing

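For Treg KI against Treg WT, 0 genes were called by edgeR with RLE factors, with no filter, with the compared groups only, with the library number as a block, with a term for Cd8a or for Y-linked level, and without the numbers WT 4, KO 2 and KI 3, and 0 to 2 when each library was left out in turn. DESeq2 called 5, and without Treg KI 3, Treg WT 3 and Treg WT 4 edgeR called 8, 7 higher and 1 lower (Ap1s2). For Treg minus Th0 the counts were 0 throughout except 4 by DESeq2 (2 of them higher) and 3 without these 3 libraries, and for Treg minus Th1 0 except 5 and 4. The cause was not tested. Genes at an unadjusted p under 0.05 numbered 1206 to 2666, 835 to 2686 and 481 to 2329 over the settings. Same-numbered Treg KI and Treg WT libraries had correlations of 0.0976, 0.104, 0.364, -0.374 and 0.111 in numbers 1 to 5, not all over 0.1, so the block pairs by number only, and it changed no call. Of 589 list medians under alternatives 14 moved by more than the median SE of the list's genes. Without Treg KI 3, Treg WT 3 and Treg WT 4 the median turned to -0.018 for reported targets, 0.33 for Th1, -0.098 for naive, 0.11 for cell cycle, 0.14 for respiratory chain, 0.14 for MYC, -0.034 for microRNA processing, -0.029 for MYB partners, 0.61 for CD8 T and NK, 0.047 for myeloid and 0.12 for stress genes. Depth limits genes near 3 counts, and for Mir150 the poly(A) libraries do not measure the mature microRNA.

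Of 110 genes, 80 kept their sign in all settings. Without Treg KI 3, Treg WT 3 and Treg WT 4 the log2 fold change was 0.63 for Cd8a, 0.70 for Iigp1, -0.24 for Egr2, 0.18 for Fcgrt, -0.23 for Gm45552, -0.056 for Foxp3, 1.18 for Ifng, 0.97 for Tbx21, 0.92 for Havcr2, 0.16 for Atp5b, 0.15 for Nop56, -0.089 for Tnrc6b, 0.67 for Gzma, 0.047 for Klra7, 1.20 for Mcpt1, 0.13 for Hsp90aa1, 0.075 for Il2ra and -0.15 for Acap2. Without the numbers WT 4, KO 2 and KI 3 it was 0.10 for Cd8a, -0.087 for Egr2, -0.19 for Xist, 0.17 for Fcgrt, -0.0051 for Setd5, -0.068 for Zeb1 and -0.13 for Acap2. With the block it was 0.10 for Cd8a and 0.18 for Iigp1, with the Cd8a term 0.021 for Cd8a and -0.10 for Rcn3, and with the Y-linked term -0.0091 for Egr2 and -5.35 for Xist. For Acap2 it was -0.0035 with RLE factors, -0.0081 with the compared groups only and -0.0034 by DESeq2. Leaving out each library gave ranges across 0 for Cd8a (-2.86 to 2.53), Iigp1 (-0.53 to 0.65), Rcn3 (-1.07 to 1.44), Egr2 (-0.13 to 0.16), Xist (-0.17 to 1.25), Fcgrt (-1.86 to 0.92), Zeb1 (-0.12 to 0.12), Gm45552 (-0.15 to 0.57), Foxp3 (-0.054 to 0.51), Ifng (-6.76 to 0.68), Tbx21 (-2.72 to 0.33), Il2ra (-0.12 to 0.0068), Itgae (-0.59 to 0.38), Cbl (-0.11 to 0.0037), P2rx7 (-0.066 to 0.39), Cxcl10 (-0.18 to 1.95), Foxo1 (-0.22 to 0.066), Myb (-0.20 to 0.013), Hbb-bs (-1.13 to 0.019), Ikzf2 (-0.59 to 0.017) and Acap2 (-0.090 to 0.056).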
